A study of Mus musculus with 30 samples.

Results

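A set of 10 genes that govern mitochondrial biogenesis and heat production was followed in 3T3-L1 adipocytes: Ppargc1a, Ppargc1b, Ucp1, Ucp2, Tfam, Nrf1, Esrra, Cidea, Dio2 and Prdm16. They were chosen by name, from knowledge of the pathway and with earlier results of these data known. Each was matched by its Ensembl identifier to 1 of the 54232 genes of the count table. Of these 10 genes, 8 passed the filter of more than 14 counts over all libraries and were among the 20139 genes tested, and 6 had a mean of at least 10 counts per library. The other 4, Ucp1, Prdm16, Cidea and Dio2, were too low to read.

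The study asked how the uremic toxin indoxyl sulfate (IS) and oxidized low-density lipoprotein (oxLDL) alter fat cells, and how pNaKtide, a peptide that blocks Src signaling through the Na/K-ATPase, modifies that. 3T3-L1 is an established mouse preadipocyte line, so all groups share 1 genetic background, and every culture stood in adipogenic medium for 5 days. Messenger RNA was sequenced in 6 groups of 5 libraries each. Control cells received no agent, 3 groups received a single agent (100 µM IS, 50 µg/mL oxLDL or 0.7 µM pNaKtide), and in 2 groups pNaKtide was combined with IS or with oxLDL at the same doses. The treatment lasted 5 days by the sample labels and 2 days by the study's methods, and although the labels name 3T3 cells as the source, their extraction protocol speaks of adipose tissue. No label says that the 5 libraries of a group came from separate cultures, so the p-values measure the spread between libraries, which may be technical.

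PGC-1α and PGC-1β, encoded by Ppargc1a and Ppargc1b, are transcriptional coactivators without a DNA-binding domain of their own. They act on factors such as the nuclear respiratory factor NRF1 and the estrogen-related receptor ERRα, which drive nuclear genes for mitochondrial proteins. Among these is TFAM, the factor that packages mitochondrial DNA and helps to start its transcription. In brown and beige adipocytes the same coactivators switch on UCP1, the proton carrier of heat production, together with DIO2, which activates thyroid hormone locally, and CIDEA, a lipid droplet protein, while PRDM16 acts upstream and holds the brown fate. White fat cells and the 3T3-L1 line are known for a white rather than a brown programme, and UCP2, a relative of UCP1, is made in many tissues and does not serve heat production.

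The proximal promoters were searched for elements of this pathway. Of the 10 genes, 8 matched a start site in the RefSeq promoter table (GRCm38.p6), with 9 windows of 250 bases before and 50 after the start, since Nrf1 has 2 starts. Both strands were searched for the NRF1 core GCGCATGC, the ERR element TCAAGGTCA, the GABP/ETS element CCGGAAGT and the palindromic cAMP response element TGACGTCA. The last 150 bases before the start are shown for Ppargc1a, Ucp2 and Tfam, the genes whose levels differed most clearly between groups, and for Esrra, written along the gene's strand with motif matches in capitals.
Ppargc1a, chr5:51567726-51567875, minus strand: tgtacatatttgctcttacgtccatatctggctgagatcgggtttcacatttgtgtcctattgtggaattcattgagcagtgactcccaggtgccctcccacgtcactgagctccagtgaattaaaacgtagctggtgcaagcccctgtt
Ucp2, chr7:100493208-100493357, plus strand: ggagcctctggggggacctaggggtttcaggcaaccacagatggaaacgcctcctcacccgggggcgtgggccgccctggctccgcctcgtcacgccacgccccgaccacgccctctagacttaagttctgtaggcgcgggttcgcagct
Tfam, chr10:71238045-71238194, minus strand: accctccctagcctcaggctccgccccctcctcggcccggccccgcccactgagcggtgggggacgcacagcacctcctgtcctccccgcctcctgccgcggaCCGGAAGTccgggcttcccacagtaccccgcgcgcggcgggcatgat
Esrra, chr19:6921809-6921958, minus strand: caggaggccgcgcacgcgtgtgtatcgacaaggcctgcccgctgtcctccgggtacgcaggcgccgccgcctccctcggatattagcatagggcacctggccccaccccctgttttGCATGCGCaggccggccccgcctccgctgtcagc

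The Tfam stretch holds 1 GABP/ETS element, whose first base lies at -47 from the start, and the letters CCGGAAGT occur in 3.89% of the 32851 promoters of the table. Positions hold for the RefSeq starts only. In the GENCODE M21 annotation Tfam spans chr10:71225464-71238280, so this stretch and its element lie inside the annotated gene. The Dio2 window, chr12:90738989-90739288, lies wholly before the annotated gene, chr12:90724552-90738438 on the minus strand. The Esrra stretch holds 1 NRF1 core on the opposite strand, first base at -34, a sequence found in 2.71% of promoters. Outside the stretches shown, the Dio2 promoter has a cAMP response element at -95 (1.79% of promoters), and the ERR element, in 0.423% of promoters, was in none of the 9 windows. GC content differed widely, from 48.0% in the Ppargc1a stretch to 68.0% in Ucp2, 70.7% in Esrra and 75.3% in Tfam. These matches describe letters in a window and say nothing of binding. The transcripts also differed in GC content, from 44.4% for Tfam and 45.5% for Ppargc1a to 55.2% for Ucp2, 57.9% for Ppargc1b and 58.4% for Esrra.

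The libraries carried the marks of adipocytes. All 12 adipocyte markers looked up were above 10 counts on average, with mean FPKM (reads scaled for gene length and sequencing depth, as deposited) of 729 for the adipokine gene Adipoq, 557 for the fatty acid carrier gene Fabp4 and 2802 for the lipid droplet gene Cidec. Preadipocyte genes were present as well, with 251 FPKM for the collagen gene Col1a1 and 23.0 for the preadipocyte factor gene Dlk1. Of 8 skeletal muscle markers, the factors Myod1, Myog and Myf5 were at 0 counts in all 30 libraries, and Des (210.2 counts on average) and Acta1 (14.6) were the 2 with means of at least 10 counts. Of 8 macrophage markers, Ptprc, Itgam and Tyrobp were at 0 throughout, and Cd68 (52.3 counts on average) and Lyz2 (17.3) were the 2 with such means. Summed over each list, the muscle markers reached 3.46 to 11.9 FPKM and the macrophage markers 3.32 to 6.62 FPKM in a library.

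Counted reads per library ran from 6945498 to 15159877, with a median of 11524210. The first principal component of log2 CPM (TMM-scaled counts relative to library depth) over 12580 genes held 64.4% of the variance, and some libraries stood apart from their groups on it. Control replicate 1 scored 25.8, within the range of the oxLDL libraries (14.7 to 41.9), while the other control libraries scored from -29.9 to -6.47. IS replicate 4 scored -28.2, against 23.2 to 36.7 in the other IS libraries. Further, oxLDL + pNaKtide replicate 4 scored -67.5, against -33.2 to -14.5 in the rest of its group. For pNaKtide replicate 3 the score was 5.36, against -36.6 to -15.9. The slope of a library's expression over transcript GC content moved with this score. It was -0.212 log2 units per 10 percentage points in control replicate 1 and 0.0174 to 0.355 in the other controls, 0.290 in IS replicate 4 and -0.376 to -0.208 in the other IS libraries, and -0.437 to -0.137 with oxLDL. All were kept under their labels. An exchange of labels with other libraries is possible and was not tested. Values without control replicate 1 and IS replicate 4 are therefore given beside the results that move. These libraries were picked by their scores on this axis of the same data. Ucp2, Tfam and Ppargc1a also vary along it, so fits without the 2 libraries are no independent check. In 4 pairs of libraries of 1 group (control 2 and 4, pNaKtide 1 and 2, pNaKtide 4 and 5, IS + pNaKtide 3 and 4) the counts differed by a chi-square per degree of freedom of only 1.30 to 1.82, where counting noise alone gives about 1 and other pairs reached 57.1. Next came IS 1 and 2 (2.01) and oxLDL 2 and 5 (2.30), which were not summed below. The labels do not say whether such pairs came from separate cultures, so the number of distinct samples may be below 5 in these 3 groups. The same doubt holds for IS and oxLDL. With each of the 4 pairs summed to 1 library, a fit added after seeing the data, oxLDL against control called 25.1% of all genes tested and IS against control 0.134%.

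Ordered by mean FPKM over the 30 libraries, the levels spanned a wide range. Ucp2 led with 74.4 FPKM (range 42.6 to 131), above 94.5% of the genes tested. Esrra followed with 22.8 FPKM (19.3 to 27.6), Tfam with 5.02 (3.68 to 6.58) and Ppargc1b with 2.90 (1.88 to 3.75). Nrf1 stood at 1.75 FPKM (1.53 to 2.03) and Ppargc1a at 0.969 (0.416 to 1.59), the lowest of the 6 readable genes. The ranges of Ucp2 and Esrra overlapped with those of no other gene of the 10, while that of Cidea, at 0.220 FPKM (0 to 0.480), reached into that of Ppargc1a. The neighbours Tfam and Ppargc1b overlapped at 3.68 to 3.75 FPKM, as did Ppargc1b and Nrf1 at 1.88 to 2.03 and Nrf1 and Ppargc1a at 1.53 to 1.59.

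**Figure D1:**
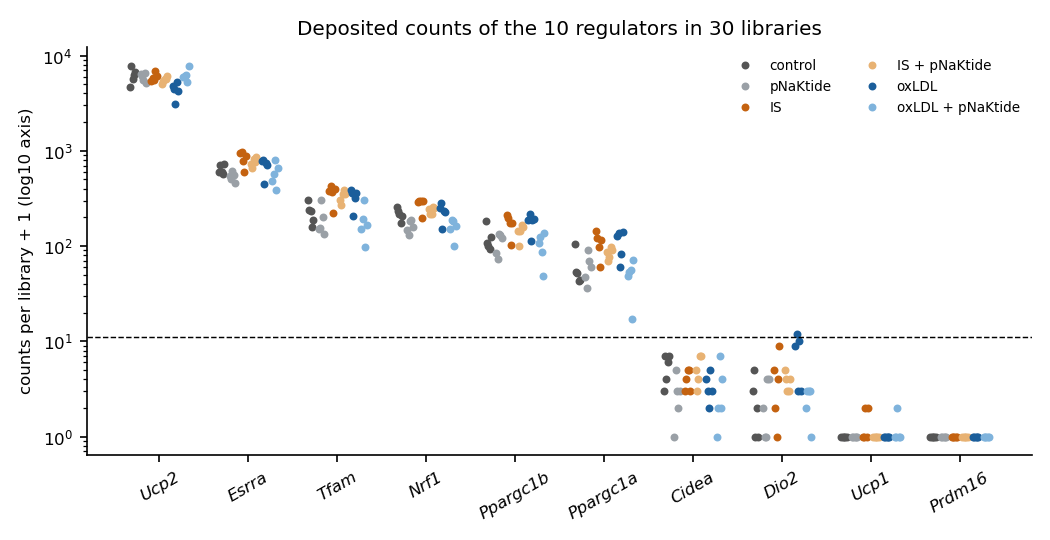
Deposited counts per library plus 1 on a log10 axis for the 10 genes, with 1 point for each of the 30 libraries, coloured by group, and a dashed line at 10 counts. Ucp2 lies between 3122 and 7854 counts, while Cidea and Dio2 reach at most 6 and 11 counts, Ucp1 at most 1, and Prdm16 none.

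The thermogenic effectors were close to absent. Ucp1 had 3 counts in all, 1 each in IS replicate 3, IS replicate 5 and oxLDL + pNaKtide replicate 3, and 0 in the other 27 libraries. Prdm16 had 0 counts in all 30 libraries. A count of 0 allows up to 3 counts, which corresponds to at most 0.497 CPM in these libraries, for counting error only. Neither gene was tested, and no group can be set against another for them.

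Cidea had 90 counts over 28 of the 30 libraries, never more than 6 in 1 library, and Dio2 had 83 counts over 24 libraries, with at most 11. Control libraries held 0.164, 0.474, 0.287, 0.528 and 0.567 CPM of Cidea, and oxLDL libraries 0.212, 0.136, 0.124, 0.322 and 0.152. For Dio2 the control values were 0.164, 0.316, 0, 0.106 and 0 CPM, and the oxLDL values 0.565, 0.749, 0.247, 0.725 and 0.152. Every oxLDL library lay above the control mean of Dio2, but the groups overlapped, and the values stand on 11 counts or fewer. The fits still gave Dio2 an adjusted p for oxLDL against control of 0.0349, which became 0.101 without oxLDL replicate 2. With at most 11 counts in a library, no size is read from it, and its place among the called genes is a count of calls only. Cidea was not called (adjusted p 0.146), and was called without control replicate 1 (0.0640) or without oxLDL replicate 4 (0.0956).

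Other genes of the brown and beige programme ranged from absent to well expressed. Of 40 further genes on a list of thermogenic, brown and beige adipocyte genes, 20 had means under 10 counts, and 11 of these had too few counts to be tested. The brown fat transcription factor genes Zic1 and Lhx8, the beige marker Tbx1, the secreted factor gene Bmp7 and the mitochondrial creatine kinase gene Ckmt2 were at 0 in all libraries. Among the other 20, Pdk4, a kinase that acts on pyruvate dehydrogenase, stood at 19.0 FPKM and Letmd1, a mitochondrial protein gene, at 13.1 FPKM. Elovl3, an enzyme of very long chain fatty acid synthesis, stood at 13.0 FPKM, the cytochrome oxidase subunit gene Cox8b at 10.9 FPKM, the potassium channel gene Kcnk3 at 14.8 FPKM and the adipocyte commitment factor gene Ebf2 at 1.56 FPKM.

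oxLDL against control asked what the lipoprotein does on its own, and the coactivators and Ucp2 moved in opposite directions. Of the 8 genes tested, Ppargc1a, Ppargc1b, Tfam and Dio2 were called higher, and Ucp2 was called lower, while Esrra, Nrf1 and Cidea did not pass. The call is a BH-adjusted p-value under 0.1 in edgeR's quasi-likelihood fit of all 30 libraries, adjusted over the 20139 genes tested. It was reached by 36.0% of all genes tested, which is the background for these 5 of 8. Of the 6 readable genes 4 were called. In a fit of the 11567 genes with more than 14 counts in every library, which include these 6, 58% were called. Over the 6 readable genes the median log2 fold change was 0.16, and over all genes 0.04.

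Ucp2 was the gene with the largest counts and the firmest change. Given in replicate order, as below, the control libraries held 383, 619.8, 548, 664 and 638 CPM, and oxLDL libraries 337, 301, 386, 420.4 and 319. The control library at 383 CPM is replicate 1, and it alone lay inside the range of the oxLDL libraries. The means were 571 ± 114 and 353 ± 49.1 CPM (SD, n = 5 in each group), or -0.69 ± 0.16 (SE) as a log2 fold change, with an adjusted p of 0.00783 by edgeR. Without control replicate 1 it was -0.81 (0.000407). All 11 alternatives and all 10 fits without 1 library of these groups kept this call, with adjusted p-values of at most 0.0336.

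Ppargc1a, at the head of the biogenesis pathway, went the other way. Its control values were 8.53, 4.19, 4.87, 4.43 and 4.07 CPM, and its oxLDL values 8.89, 9.19, 7.29, 6.61 and 10.7 CPM. Again control replicate 1 lay among the oxLDL libraries, while the other 4 controls lay below every one of them. The means of 5.22 ± 1.88 and 8.53 ± 1.61 CPM (SD, n = 5) differed by 0.71 ± 0.20 (SE) on the log2 scale, with an adjusted p of 0.0124 by edgeR. The call held under all 11 alternatives and without any single library, with log2 fold changes between 0.61 and 0.97 in the latter.

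Ppargc1b, the second coactivator, held 15.1, 8.54, 9.45, 9.81 and 11.6 CPM in control and 13.3, 14.6, 13.8, 15.2 and 14.7 CPM in oxLDL libraries. The oxLDL values were tight and the control values scattered, with control replicate 1 just under the highest oxLDL library. The log2 fold change was 0.39 ± 0.16 (SE), adjusted p 0.0628 by edgeR, and 0.54 (0.00679) for Ppargc1b without control replicate 1. With the close pairs summed it was 0.34 (0.154) and not called. Nor was it called without control replicate 2 (0.185), 3 (0.134) or 4 (0.140) or oxLDL replicate 2 (0.110) or 5 (0.111), the values in brackets being adjusted p-values.

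Tfam, the mitochondrial DNA factor, held 24.6, 19.0, 22.1, 16.8 and 17.9 CPM in control and 27.5, 24.2, 25.3, 25.7 and 27.1 CPM in oxLDL libraries. Only control replicate 1 reached into the oxLDL range. The log2 fold change was 0.37 ± 0.13 (SE), adjusted p 0.0319 by edgeR, which became 0.103 without control replicate 4. Without control replicate 1, Tfam was at 0.46 (0.00655). After removal of the trend of every library over GC content and transcript length, the difference shrank to 0.06 (adjusted p 0.681) for Tfam, while Ppargc1a shrank to 0.44 (0.0432), Ppargc1b grew to 0.62 (0.0303) and Ucp2 stood at -0.54 (0.0210), all 3 still called. That trend moved with the groups, and its part in the Tfam result was not tested.

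The DNA-binding partners did not pass the test. Nrf1 ranged from 18.2 to 21.1 CPM in control and from 17.3 to 19.1 CPM in oxLDL libraries, a log2 fold change of -0.11 with a 95% interval from -0.27 to 0.06 (adjusted p 0.344 by edgeR). Esrra ranged from 49.3 to 68.0 CPM in control and from 53.7 to 59.7 CPM in oxLDL libraries, with a log2 fold change of -0.06 and an interval from -0.22 to 0.10 (adjusted p 0.613).

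**Figure D2:**
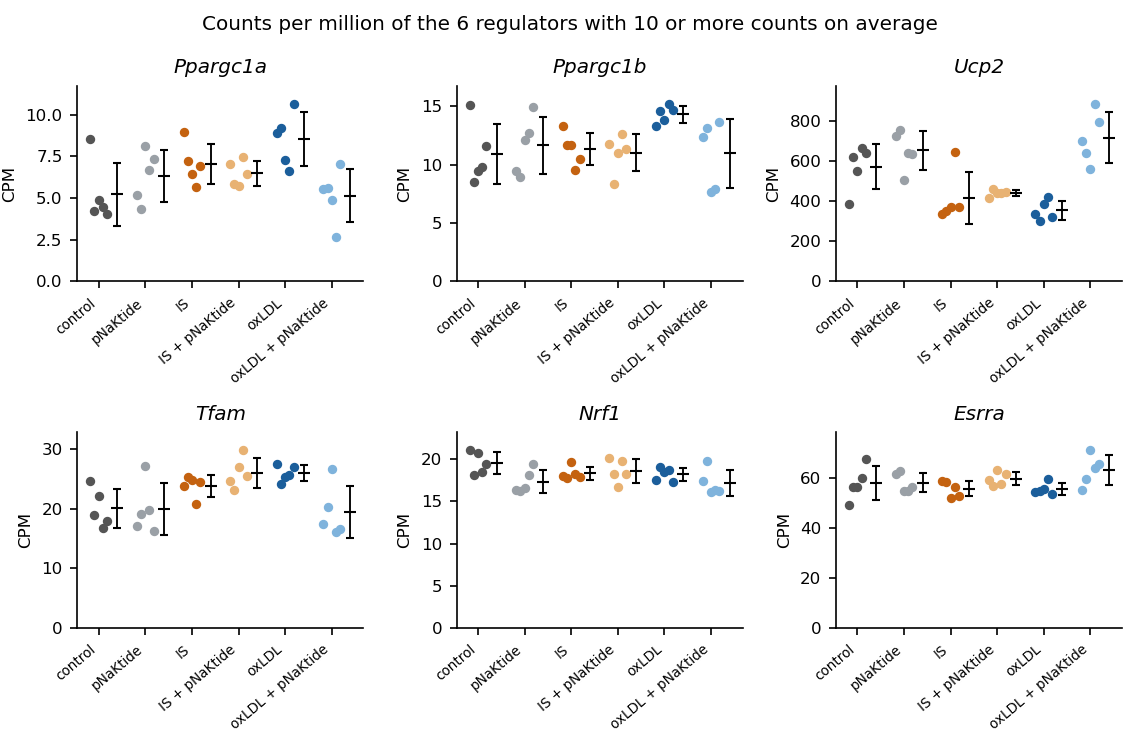
TMM-scaled CPM of the 6 readable genes by group, with 1 point per library in replicate order and the mean ± SD (n = 5) beside it in black, each panel starting at 0. Ucp2 is lowest with oxLDL (353 ± 49.1 CPM) and highest with oxLDL + pNaKtide (714 ± 126 CPM), Ppargc1a is highest with oxLDL (8.53 ± 1.61 CPM), and control replicate 1 and IS replicate 4 sit away from their groups for Ucp2.

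Wider lists of the pathway moved in both directions with oxLDL. Of 32 tested genes for PGC-1 partners and upstream regulators, 11 were higher and 9 lower, beside 36.0% of all genes called, with a median log2 fold change of 0.17 beside 0.04 over all genes. Creb1, the cAMP-responsive factor that activates Ppargc1a, rose by 0.75 ± 0.19 (SE, adjusted p 0.00865 by edgeR), and Rxrb, a nuclear receptor that pairs with the PPARs, fell by 0.43 on the log2 scale (0.00783). Of 26 genes for transcription and replication of mitochondrial DNA, 10 were higher and 4 lower, with a median of 0.13. Tfb2m, the initiation factor beside TFAM, rose by 0.70 ± 0.15 (adjusted p 0.00702), while Polg, the mitochondrial DNA polymerase, fell by 0.27 (0.00850).

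Of the 29 tested genes on the thermogenic list, 5 were higher with oxLDL and 4 lower, beside 36.0% of all genes. Gk, glycerol kinase, rose by 0.52 ± 0.16 on the log2 scale (adjusted p 0.0189 by edgeR) and Kcnk3 fell by 0.41 (0.0112), every oxLDL library lying below every control library for Kcnk3. The white, adipocyte and preadipocyte counts that follow stand beside the same 36.0%. On the list of white adipocyte genes and repressors of the brown programme, 5 of 13 tested were higher and 2 lower. Rb1, the retinoblastoma protein gene known to hold back the brown fate, rose by 0.64 (0.0102), and Agt, the adipokine angiotensinogen, fell by 0.59 (0.00818). Adipocyte markers moved too, with 1 of 12 higher, the fatty acid transporter gene Cd36 (0.53, adjusted p 0.0109), and 5 lower, led by the lipase gene Pnpla2 (-0.43, 0.0131). Their summed level was 5041 to 7080 FPKM in oxLDL and 5422 to 7641 FPKM in control libraries. Whether fewer adipocytes or less RNA per adipocyte lies behind such a shift cannot be told apart in bulk RNA, and its part in the results for the 10 genes was not tested. Preadipocyte markers showed 0 of 8 higher and 2 lower, Dlk1 among them (-0.69, adjusted p 0.0369). The muscle genes Des and Acta1, the only 2 of 8 with enough counts to test, were both lower, and none of 4 tested macrophage genes was called.

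IS against control called 1 of the 8 genes, Ucp2, beside 7.94% of all genes tested. In the fit of genes with more than 14 counts in every library 21% were called. The IS libraries held 335, 352, 369, 645 and 369 CPM of Ucp2, and the library at 645 CPM is IS replicate 4. The means were 571 ± 114 CPM in control and 414 ± 130 CPM with IS (SD, n = 5), with a log2 fold change of -0.46 ± 0.16 (SE) and an adjusted p of 0.0910 by edgeR. Without any 1 of control replicates 2 to 5 or IS replicates 1, 2, 3 or 5 the adjusted p of Ucp2 rose to between 0.121 and 0.258, and in a fit of these 2 groups alone it was 0.275. With the close pairs summed Ucp2 was at -0.42 (adjusted p 0.246) and not called.

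Ppargc1a with IS held 8.94, 7.25, 6.44, 5.64 and 6.95 CPM, all above the control mean of 5.22 CPM. Its log2 fold change was 0.43 ± 0.20 (SE), unadjusted p 0.0362 and adjusted p 0.173, so it was not called. Tfam with IS held 23.8, 25.3, 24.8, 20.8 and 24.4 CPM, again all above the control mean of 20.1 CPM, with a log2 fold change of 0.25 ± 0.13 and an adjusted p of 0.220. The lowest IS library is replicate 4 for both genes. Leaving out control replicate 1 and IS replicate 4 together raised the count from 1 to 4 genes, while the share of all genes called rose to 45.4%, so that 4 of 8 is near the background. The 4 were Ppargc1a (0.75, adjusted p 0.00175), Tfam (0.38, 0.0222), Ucp2 (-0.79, 2.32e-05) and the low Cidea (0.0419). Without control replicate 1 alone, Ppargc1a reached 0.69 (0.0116) and Tfam 0.33 (0.0602), and without IS replicate 4 alone 0.49 (0.0652) and 0.29 (0.0983). Cidea passed without control replicate 1 as well, at 0.0918.

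Ppargc1b, Nrf1 and Esrra were not called with IS, with or without control replicate 1 and IS replicate 4. Their log2 fold changes were 0.06 (95% interval -0.26 to 0.38), -0.10 (-0.26 to 0.07) and -0.06 (-0.22 to 0.10), with adjusted p-values of 0.850, 0.462 and 0.671 by edgeR. Ppargc1b was at 0.26 (0.200) with both libraries left out. Of the wider lists, 1 of 32 PGC-1 partners was higher and 4 lower, and 4 of 26 genes for mitochondrial DNA were higher and none lower, beside 7.94% of all genes, as for the lists that follow. That share ran from 0.0745% (without control replicate 5) to 34.5% (without IS replicate 4) when 1 library was left out, and the calls on these lists were not followed through those fits. The highest in significance were Thrb, a thyroid hormone receptor gene (1.02, adjusted p 0.0728), Ppard, a PPAR gene (-0.31, 0.0694), and Mterf1a, a mitochondrial transcription termination factor gene (1.34, 0.0545). On the thermogenic list 1 of 29 was higher, Pdk4 (0.44, 0.0473), and 1 lower, Kcnk3 (-0.45, 0.0487), and on the white list 1 of 13 was higher, Rbl1 (0.62, 0.0711), and 1 lower, Retn (-0.41, 0.0877).

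Cell type markers moved with IS as well, beside 7.94% of all genes called. Of 12 adipocyte markers 1 was higher, Cd36 (0.45, adjusted p 0.0817 by edgeR), and 4 were lower, led by the adipogenic factor gene Cebpa (-0.46, 0.0487). Their summed level was 4675 to 6429 FPKM with IS, overlapping with the control range. Of 8 preadipocyte markers 0 were higher and 3 lower, and for the collagen gene Col3a1 (-0.41, 0.0487) every IS library lay below every control library. The muscle gene Acta1 was lower (-0.71, 0.0889), and 0 of 4 macrophage genes were called. The part of these shifts in the results for the 10 genes was not tested.

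oxLDL against IS set the agents side by side. None of the 8 genes was called by edgeR, DESeq2 or limma, beside 0.0149% of all genes tested, and 2 had an unadjusted p under 0.05 by edgeR. These were the low Dio2 and Ppargc1b. Ppargc1b held 13.31, 11.7, 11.7, 9.58 and 10.5 CPM with IS, and every oxLDL library, from 13.34 CPM up, lay above every IS library. Its log2 difference of 0.33 ± 0.16 (SE) had an adjusted p of 0.856. For Ucp2, Ppargc1a and Tfam the differences were -0.23 (95% interval -0.55 to 0.09), 0.28 (-0.11 to 0.66) and 0.12 (-0.13 to 0.38). The difference in Ucp2 rested on IS replicate 4, and without that library it was -0.02 ± 0.13 (SE), with Ppargc1a at 0.21 and Tfam at 0.08.

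pNaKtide against control tested the peptide on its own. No gene of the 8 was called by edgeR, DESeq2 or limma, beside 0.00497% of all genes tested, which is 1 gene. Nrf1 alone had an unadjusted p under 0.05. Its pNaKtide libraries held 16.4, 16.3, 16.6, 18.1 and 19.4 CPM, all below the control mean of 19.6 CPM but overlapping with the control range, with a log2 fold change of -0.18 ± 0.08 (SE) and an adjusted p of 0.789. Ucp2 stood at 651 ± 97.3 CPM (SD, n = 5) with pNaKtide and Ppargc1a at 6.34 ± 1.56 CPM, log2 fold changes of 0.19 (95% interval -0.13 to 0.51) and 0.28 (-0.14 to 0.70). Without control replicate 1 they were 0.08 for Ucp2 and 0.54 ± 0.20 (SE, adjusted p 0.596) for Ppargc1a.

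oxLDL + pNaKtide against oxLDL asked what the peptide does in cells under oxLDL. Here 6 of the 8 genes were called, beside 48.3% of all genes tested. Of the 6 readable genes 5 were called, beside 71.8% in the fit of genes with more than 14 counts in every library. Ucp2 and Esrra were higher, and Ppargc1a, Ppargc1b, Tfam and Dio2 were lower. Over the 6 readable genes the median log2 fold change was -0.23, and over all genes -0.09.

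Ucp2 rose 2.02-fold. The oxLDL + pNaKtide libraries held 696, 639, 561, 883 and 791 CPM, every one above the highest oxLDL library at 420.4 CPM. The log2 fold change was 1.02 ± 0.16 (SE), adjusted p 2.05e-05 by edgeR, and it was called under all 11 alternatives and without any single library, with values between 0.94 and 1.09 in the latter. The highest library, at 883 CPM, is replicate 4, which also lay farthest out on the main axis of the libraries at -67.5.

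Ppargc1a fell from 8.53 ± 1.61 to 5.15 ± 1.60 CPM (SD, n = 5). The oxLDL + pNaKtide libraries held 5.56, 5.59, 4.89, 2.65 and 7.05 CPM, all below the oxLDL mean, and only the last reached into the oxLDL range. The log2 fold change was -0.71 ± 0.20 (SE), adjusted p 0.00512 by edgeR, and without any single library it stayed between -0.83 and -0.56. With the GC content and length trend taken out it was -0.28 (adjusted p 0.159) for Ppargc1a, no longer called, and the part of that trend was not tested.

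Tfam held 17.5, 20.4, 26.7, 16.1 and 16.6 CPM with oxLDL + pNaKtide. The library at 26.7 CPM, replicate 3, lay inside the oxLDL range and the other 4 below it. The log2 fold change was -0.41 ± 0.13 (SE), adjusted p 0.0114 by edgeR, and with the GC content and length trend taken out 0.03 (adjusted p 0.866), with the sign turned. Ppargc1b held 12.4, 13.2, 7.64, 7.95 and 13.7 CPM, split between 3 libraries near the oxLDL range and 2 far below it, with a log2 fold change of -0.38 ± 0.16 (SE) and an adjusted p of 0.0586. It was not called without oxLDL + pNaKtide replicate 3 (-0.26, 0.198) or replicate 4 (-0.29, 0.184), and it was -0.63 (0.00967) for Ppargc1b with the trend taken out.

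Esrra showed the smallest called change. It held 55.5, 59.7, 71.3, 64.1 and 65.9 CPM with oxLDL + pNaKtide and 54.7, 55.0, 55.6, 59.7 and 53.7 CPM with oxLDL. The log2 fold change was 0.18 ± 0.08 (SE), adjusted p 0.0597 by edgeR. It was not called without oxLDL replicate 1 (0.102), 2 (0.101) or 5 (0.117) or oxLDL + pNaKtide replicate 3 (0.176), and its sign turned to -0.04 (adjusted p 0.730) when counts were scaled by library size alone and to -0.06 (0.605) with the trend taken out. The median of all genes in this comparison went from -0.09 to -0.30 under that scaling, so Esrra stayed above it, and in oxLDL against control it went from 0.04 to 0.17. Nrf1 was at -0.08 (95% interval -0.25 to 0.09, adjusted p 0.463), and at -0.30 (0.00839) with scaling by library size alone, which is the shift of all genes. The low Dio2, again with no size read, had an adjusted p of 0.0564, and was not called without oxLDL replicate 2 (0.138) or 4 (0.110) or oxLDL + pNaKtide replicate 5 (0.150).

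**Figure D3:**
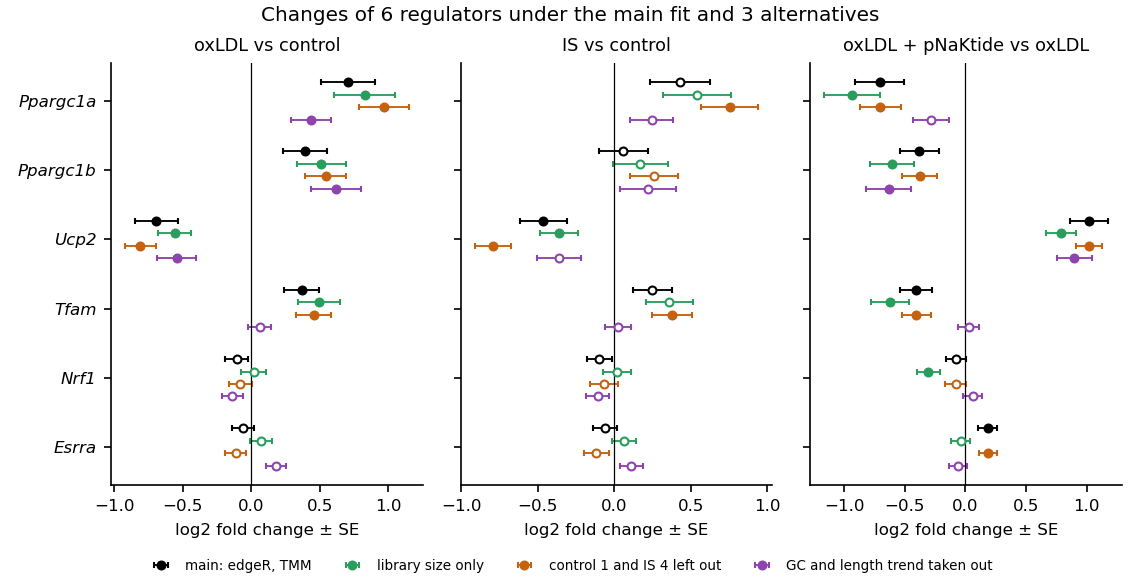
Log2 fold changes ± SE of the 6 readable genes in 3 comparisons, under the main fit and 3 alternatives, with filled points for a BH-adjusted p-value under 0.1 and open points otherwise. Ucp2 and Ppargc1a lie on opposite sides of 0 in all 3 comparisons under all 4 fits, while Tfam moves to within 0.06 of 0 once the GC content and length trend is taken out.

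The wider lists moved in both directions again. Of 32 PGC-1 partners and upstream regulators, 9 were higher and 15 lower with oxLDL + pNaKtide than with oxLDL, beside 48.3% of all genes called, with a median of -0.29 beside -0.09 over all genes. Gabpa, the ETS factor also called NRF-2α, fell by 1.01 on the log2 scale (adjusted p 6.96e-05 by edgeR), from 48.2 ± 6.96 to 23.7 ± 6.39 CPM (SD, n = 5), and Rxrb rose by 0.41 ± 0.10 (SE, 0.000906). In both genes every library of 1 group lay beyond every library of the other. Of 26 genes for mitochondrial DNA, 5 were higher and 11 lower, with a median of -0.11. Top1mt, the mitochondrial topoisomerase gene, rose by 0.50 (0.000688), and Rrm2b, a ribonucleotide reductase subunit gene that supplies nucleotides for mitochondrial DNA, fell by 1.02 (0.000453).

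On the thermogenic list 6 of 29 were higher and 6 lower, beside 48.3% of all genes, as for the other lists here. Kcnk3 rose by 0.81 ± 0.11 (SE, adjusted p 1.03e-05 by edgeR), from 47.0 to 82.4 CPM, and Pdk4, the kinase that shuts pyruvate out of the citrate cycle, fell by 0.71 (1.78e-05), from 75.6 to 45.9 CPM. On the white list 3 of 13 were higher and 6 lower, with Agt up by 0.88 (3.42e-05) and the corepressor gene Ctbp2 down, at -0.42 (4.97e-05). Of the 12 adipocyte markers 7 were higher and 1 lower, Pnpla2 at 0.77 (2.33e-05) and Cd36 at -0.73 (0.000159), and their summed level was 6862 to 8768 FPKM with oxLDL + pNaKtide. Preadipocyte markers were split, 2 of 8 higher and 1 lower, with Dlk1 at 1.00 (0.00157) and Pdgfra at -0.57 (0.00112). The muscle gene Des was higher at 1.09 (7.62e-05), as was Acta1, and 0 of 4 macrophage genes were called. The part of these shifts in the results for the 10 genes was not tested.

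oxLDL + pNaKtide was also set against control, which shares its libraries with the comparisons above. None of the 8 genes was called by edgeR, DESeq2 or limma, beside 5.20% of all genes tested by edgeR (2.51% without oxLDL + pNaKtide replicate 4 and 0.0547% with only the groups compared), and Ucp2 and Nrf1 had an unadjusted p under 0.05. Ucp2 stood at 714 ± 126 CPM against 571 ± 114 CPM in control (SD, n = 5), which is 0.32 ± 0.16 (SE) on the log2 scale, with an adjusted p of 0.277. Nrf1 stood at 17.2 ± 1.58 against 19.6 ± 1.33 CPM, -0.19 ± 0.08, adjusted p 0.224, and it was called only when counts were scaled by library size alone (-0.29, 0.0668), where the median of all genes went from -0.03 to -0.12. Ppargc1a (0.00, 95% interval -0.42 to 0.42), Ppargc1b (0.01, -0.32 to 0.35) and Tfam (-0.04, -0.30 to 0.23) were near 0 with wide intervals. Without control replicate 1, Ucp2 was at 0.21, Ppargc1a at 0.26, Ppargc1b at 0.16 and Tfam at 0.05, with adjusted p-values of 0.564 to 0.920. On the thermogenic list 2 of 29 were higher, led by Kcnk3 (0.40, adjusted p 0.0450 by edgeR), and 1 lower, Pdk4 (-0.44, 0.0220). On the white list Retn was higher (0.45, 0.0609) and Ctbp2 lower (-0.23, 0.0720). Of 26 genes for mitochondrial DNA 1 was lower, Polg (-0.20, 0.0957), and 0 of 32 PGC-1 partners were called.

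The difference between the change with pNaKtide under oxLDL and the change with pNaKtide alone was tested as an interaction. It was called for 2 of the 8 genes, beside 24.6% of all genes tested. That share ran from 10.5% (without pNaKtide replicate 3) to 37.3% (without control replicate 1) when 1 library was left out. In the fit of genes with more than 14 counts in every library 46.4% were called. For Ucp2 the interaction was 0.83 ± 0.22 (SE, log2 scale, adjusted p 0.0249 by edgeR), and for Ppargc1a -0.99 ± 0.29 (0.0308). Both kept the call under all 11 alternatives and without any single library, with the largest adjusted p at 0.0665 for Ucp2 and 0.0849 for Ppargc1a. Ppargc1b (-0.47, adjusted p 0.150) and Tfam (-0.40, 0.129) had an unadjusted p under 0.05 and did not pass by edgeR. DESeq2 called Tfam (-0.39, 0.0909), limma on log2(FPKM + 1) called Tfam (-0.34, 0.0772) and Ppargc1b (-0.38, 0.0920), and edgeR with library size alone called Tfam (-0.58, 0.0670) and Ppargc1b (-0.66, 0.0706). With the GC content and length trend taken out, Ppargc1b was called at -0.75 (0.0861) and Tfam was at -0.02 (0.945). Without control replicate 1 both passed, at -0.62 (0.0312) for Ppargc1b and -0.49 (0.0439) for Tfam, as they did without pNaKtide replicate 2 for Ppargc1b (0.0961), and without pNaKtide replicate 5 (0.0929) or oxLDL + pNaKtide replicate 3 (0.0266) for Tfam. Esrra passed without control replicate 1 alone (0.23, with an adjusted p just under the threshold). Cell type markers were called in this interaction too, beside the same 24.6%. Of 12 adipocyte markers 5 were higher and 1 lower, of 8 preadipocyte markers 2 higher and 0 lower, and both tested muscle genes higher. Their part in the results for the 10 genes was not tested.

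IS + pNaKtide against IS asked the same of cells under IS. None of the 8 genes was called by edgeR, DESeq2 or limma, beside 0% of all genes tested, and none had an unadjusted p under 0.05. Ucp2 held 415, 459, 438, 438 and 442 CPM, a spread of 15.7 CPM (SD) beside 130 CPM in the IS libraries, with a log2 fold change of 0.08 ± 0.15 (SE). All 5 lay above the IS libraries other than replicate 4, and without that library the log2 fold change of Ucp2 was 0.30 ± 0.13 (SE, adjusted p 0.699 by edgeR). Ppargc1a held 7.03, 5.82, 5.73, 7.44 and 6.43 CPM, a log2 fold change of -0.12 (95% interval -0.51 to 0.26), or -0.19 without IS replicate 4. Tfam held 24.7, 23.1, 27.0, 29.8 and 25.6 CPM, a log2 fold change of 0.13 (-0.13 to 0.38), or 0.08 without that library. The interaction of IS and pNaKtide likewise called none of the 8 genes by edgeR, DESeq2 or limma, beside 0% of all genes tested, and the low Cidea alone had an unadjusted p under 0.05. It was -0.11 for Ucp2 and -0.41 for Ppargc1a, and with control replicate 1 and IS replicate 4 left out 0.22 (adjusted p 0.712) for Ucp2 and -0.73 (0.631) for Ppargc1a.

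Against control, IS + pNaKtide called none of the 8 genes by edgeR or limma and 1, Tfam, by DESeq2, beside 0.358% of all genes tested by edgeR and 7.38% by DESeq2. By edgeR that share was 26.7% without control replicate 1 and 0.00993% without control replicate 2. Tfam and Ucp2 had an unadjusted p under 0.05. Tfam stood at 26.0 ± 2.54 CPM against 20.1 ± 3.22 CPM in control (SD, n = 5), 0.37 ± 0.13 (SE) on the log2 scale with an adjusted p of 0.166 by edgeR. With DESeq2 it was 0.36 (0.0737), and with control replicate 1 left out 0.46 (0.0226). Ucp2 stood at 439 ± 15.7 CPM, a log2 fold change of -0.38 ± 0.16 with an adjusted p of 0.197, and -0.49 (0.0272) for Ucp2 without control replicate 1. Ppargc1a, at 6.49 ± 0.745 CPM, was called only in that last fit, at 0.57 (0.0417), among those that leave out 1 library. These 3 calls of 8 stand beside the 26.7% of all genes in that fit. On the wider lists only the preadipocyte marker Col1a1 was called (-1.04, adjusted p 0.0568 by edgeR), every IS + pNaKtide library lying below every control library.

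Over all 6 groups at once, 3 of the 8 genes differed, beside 45.1% of all genes tested: Ucp2 (adjusted p 4.55e-05 by edgeR), Tfam (0.0103) and Ppargc1a (0.0262). In the fit of genes with more than 14 counts in every library 70.7% were called. In descending order of mean the groups stood for Ucp2 at 714 (oxLDL + pNaKtide), 651 (pNaKtide), 571 (control), 439 (IS + pNaKtide), 414 (IS) and 353 CPM (oxLDL). No step between neighbours in that order exceeded the larger of their SDs except that from control to IS + pNaKtide. For Ppargc1a the order was oxLDL (8.53 CPM), IS (7.04), IS + pNaKtide (6.49), pNaKtide (6.34), control (5.22) and oxLDL + pNaKtide (5.15), with no step larger than the larger SD of the pair. Tfam fell into 3 groups at 23.8 to 26.0 CPM (IS + pNaKtide, oxLDL, IS) and 3 at 19.5 to 20.1 CPM (control, pNaKtide, oxLDL + pNaKtide).

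The levels of these genes were set against the main axis of the libraries. Over the 30 libraries, which share their normalization and their range of GC slopes, the correlation of log2 CPM with the score on that axis was -0.98 for Ucp2, 0.83 for Tfam, 0.83 for Ppargc1a, 0.57 for Ppargc1b, -0.52 for Esrra and 0.34 for Nrf1. With the slope over GC content it was 0.97 for Ucp2, -0.85 for Tfam and -0.81 for Ppargc1a. Control replicate 1, a control by its label, had the Ucp2, Tfam and Ppargc1a levels of the oxLDL libraries, and IS replicate 4 had the Ucp2 level of control libraries. These correlations describe the libraries, and the part of the axis in the differences between groups was not tested.

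**Figure D4:**
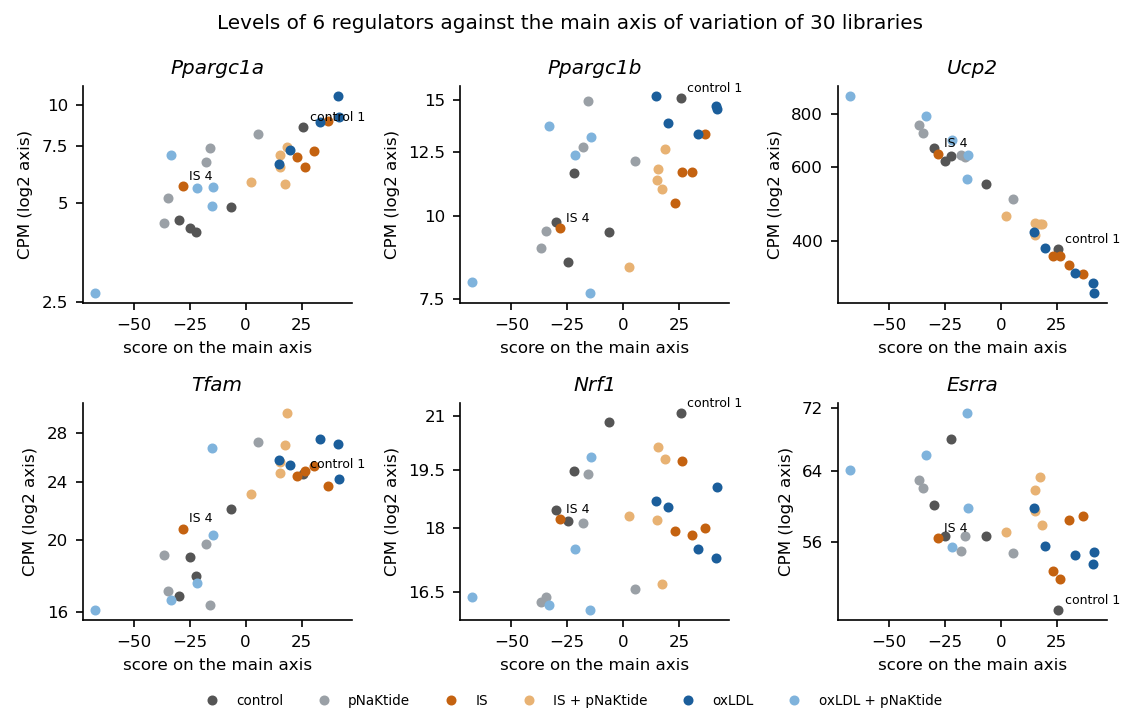
CPM on a log2 axis against the library's score on the first principal component for the 6 readable genes, with 1 point per library coloured by group and control replicate 1 and IS replicate 4 named. Ucp2 descends along the axis in a narrow band (r = -0.98, n = 30 libraries), Tfam and Ppargc1a rise along it (r = 0.83 each), and Nrf1 shows little order (r = 0.34).

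Among the 6 readable genes themselves, the levels of Ppargc1a and Ppargc1b had a correlation of 0.77 over the 30 libraries, those of Ucp2 and Tfam -0.82, and those of Ucp2 and Ppargc1a -0.76. Nrf1 had 0.37 with Ppargc1b among the others, and -0.47 with Esrra. Compared with the 12580 genes of a mean log2 CPM of at least 1, the pattern most like that of Ucp2 belonged to Slc25a39 (0.99), Yipf3 (0.99) and Ybx1 (0.99). For Ppargc1a it was Cflar (0.93), Dyrk2 (0.93) and Hook3 (0.92), for Ppargc1b Mdn1 (0.90), Syne1 (0.89) and Tnrc6b (0.89), and for Tfam 4933434E20Rik (0.92), Vapa (0.91) and Atg12 (0.91). The likeness was looser for Esrra, led by Clstn3 (0.78), Pcbd2 (0.77) and Acaa1b (0.77), and for Nrf1, led by Fancd2 (0.73), Abr (0.69) and Usp22 (0.69). These are the highest values among 12580 genes, in libraries where the first component held 64.4% of the variance. Ucp2 itself had -0.98 with that component, so a high value need not be particular to a pair of genes.

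In the gene annotation (GENCODE M21, GRCm38) the readable genes lie at chr5:51454250-51567726 (Ppargc1a), chr18:61298136-61400431 (Ppargc1b), chr7:100493337-100502020 (Ucp2), chr10:71225464-71238280 (Tfam), chr6:30047988-30153458 (Nrf1) and chr19:6910977-6921813 (Esrra). Exons of Ucp2 overlap with those of Dnajb13 on the other strand, and exons of Esrra with those of Trmt112 on the other strand and of Mir6990 on its own. The strand setting of the counting is not given in the sources used here, so reads of Ucp2 and Esrra cannot be separated with certainty from those of their antisense neighbours. Ppargc1a, Ppargc1b, Tfam and Nrf1 have no such overlap.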

How the data were processed

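RNA sequencing of 30 libraries of 3T3-L1 cells in 6 groups of 5 was analysed. The count values were made by the authors by trimming with Trimmomatic 0.38, aligning to GRCm38 with HISAT2 2.1.0 and counting reads per gene with GenomicAlignments. The FPKM values, as deposited, were scaled by the authors for depth and gene length, and serve here for levels between genes and for 1 alternative. The authors' normalized signal values, deposited as counts divided by size factors from DESeq2 1.20.0, were not used further. The annotation release is not given in the sources used here.

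Genes with more than 14 counts in all were fitted for 6 groups with edgeR 4.0.16 (R 4.3.3; TMM, robust quasi-likelihood, two-sided tests, BH threshold 0.1, prior count 2 for log2 CPM). Alternatives were DESeq2 1.42.0, RLE factors, library size alone, other filters, limma 3.58.1 on log2(FPKM + 1), a replicate block, the compared groups alone, a trend over GC content and length (mgcv 1.9.3) and omitted libraries. limma was limited to mean FPKM values of 0.5 or more, which leaves 6 of the 10 genes. All 10 genes are named. From each wider list the most significant called gene of either direction is named, at a mean of 10 counts or more, and for each readable gene the 3 most alike by Pearson's r. Markers and genes at 0 were named after their values were seen. The genes and lists were chosen with earlier results of these data known. In data simulated for oxLDL against control, edgeR called 158 of 200 changed genes among 19896, 62 of 100 at 1.5-fold and 96 of 100 at 2-fold. The simulated libraries varied independently, with the same dispersion for all genes and no shared axis of variation. These rates therefore check the code and do not measure the power of the real fit. Pairs of libraries of a group differed by a chi-square per degree of freedom of 1.30 to 57.1, above the value of about 1 that counting noise gives, and were counted separately. In an alternative added after the data were seen, the 4 pairs under 2 were each summed, which left 26 libraries.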

Additional observations from a re-analysis of the deposited data

Results flagged for a closer look

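Among 36 sets of 5 libraries, 6 genes in 6 groups, 3 held a library far from the other 4, where chance alone gives about 1 in 20. Ppargc1a stood at 8.53 CPM in control replicate 1, beside 4.07 to 4.87 CPM in the other controls. Ucp2 stood at 645 CPM in IS replicate 4, beside 335 to 369 CPM. Nrf1 stood at 19.7 CPM in IS replicate 3, beside 17.8 to 18.2 CPM. Control replicate 1 and IS replicate 4 are also among the libraries that stand apart on the first principal component (25.8 and -28.2), and IS replicate 3 is not (26.4). Of the libraries that stand apart there, oxLDL + pNaKtide replicate 4 (-67.5) and pNaKtide replicate 3 (5.36) were not flagged here.

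The change with pNaKtide differed between cells with and without oxLDL for Ucp2, by 0.83 on the log2 scale (adjusted p 0.0249 by edgeR), and for Ppargc1a, by -0.99 (0.0308).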

How the results depend on the processing

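The number of the 10 genes called against control with oxLDL was 5, with shares of all genes tested in brackets here and below (36.0%). It was 3 after removal of the trend over GC content and length (18.8%), 3 without control replicate 4 (24.7%) and 6 without control replicate 1 (45.9%). With IS it was 1 (7.94%), and 0 with genes of at least 1 count (1.86%), an adjusted p of 0.05 (0.646%), only the groups compared (0%) or the trend out (4.15%). It was 4 with control 1 and IS 4 left out (45.4%), and 0 to 4 without 1 library (33.2% where it was 4, without control replicate 1). With oxLDL + pNaKtide against oxLDL it was 6, and 3 at an adjusted p of 0.05 (41.6% of all genes) and 2 with the trend out (36.4%). Against control, oxLDL + pNaKtide went from 0 to 1 (Nrf1) with library size only (9.77% of all genes). IS + pNaKtide went from 0 to 1 with DESeq2 (7.38%) and with the replicate block (6.64%), Tfam in each. It went to 2 with only the groups compared (5.72%), 3 with control 1 and IS 4 left out (32.4%), and 0 to 3 without 1 library (26.7% where it was 3, without control replicate 1). The interaction of oxLDL and pNaKtide (24.6% of all genes) went from 2 to 4 with library size only (26.2%) and with limma on FPKM (43.1%). It went to 5 with control 1 and IS 4 left out (40%), and was 2 to 5 without 1 library (37.3% where it was 5, without control replicate 1). Differences over all 6 groups (45.1% of all genes) went from 3 to 6 with library size only (49.3%) and to 4 with DESeq2 (47.6%). Tfam turned to 0.0260 with the trend out, and Esrra to -0.0378 with library size only and -0.0605 with the trend out, in oxLDL + pNaKtide against oxLDL. The cause was not tested. Summing the 4 close pairs, an alternative chosen after seeing the data, took IS against control from 1 to 0 genes and oxLDL against control from 5 to 4 (Ppargc1b lost), and no other call of the 10 genes changed. In that fit the interaction of oxLDL and pNaKtide had adjusted p-values of 0.0796 for Ucp2 and 0.0826 for Ppargc1a. Libraries with the same replicate number did not all deviate together (median correlation 0.0996 over 75 pairs, range -0.661 to 0.790, against a median of -0.0342 and a range of -0.806 to 0.693 for other pairs), and the labels name no shared batch, so they share only a number. The replicate block also called Tfam in the interaction of oxLDL and pNaKtide (-0.41, adjusted p 0.0771).

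Over all genes tested, calls for oxLDL against control ranged from 3796 (trend out) to 9591 (control 1 and IS 4 left out) around 7259, for oxLDL + pNaKtide against oxLDL from 7321 (trend out) to 10376 (library size only) around 9722, for oxLDL + pNaKtide against control from 11 (only the groups compared) to 1987 (trend out) around 1047, for IS + pNaKtide against control from 0 (close pairs summed) to 6517 (control 1 and IS 4 left out) around 72, for IS against control from 0 (only the groups compared) to 9140 (control 1 and IS 4 left out) around 1599, and for the interaction of oxLDL and pNaKtide from 2109 (without pNaKtide replicate 3) to 8049 (control 1 and IS 4 left out) around 4951. Limits of 5, 10 or 20 mean counts left the same 4 genes too low. DESeq2 gave no adjusted p for genes it filtered out. Precision is limited for Ppargc1a by 16 to 143 counts per library.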
